A study of Caenorhabditis briggsae with 12 samples.

Results

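In adult hermaphrodites of the nematode Caenorhabditis briggsae, 56 of 23169 counted genes peaked on day 6 of adulthood by a set margin. The margin was taken over both the younger and the older animals. These genes were chosen by their level in the libraries themselves. A gene was a member if its lowest day 6 value was at least 1 CPM (a gene's count as a share of its library's total, scaled alike in all libraries) and at least 1.5 times the highest value of the other 9 libraries, with a mean under 1000 CPM. The height of the day 6 peak is therefore a description and was not tested. The order of days 1, 3 and 9 among themselves was not part of the choice, and these days were compared by test. The rule does cap each of these 9 libraries below day 6, which can limit how far these days differ in a member.

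All libraries came from whole hermaphrodites of AF16, the wild-type strain, grown on E. coli OP50, and no group carried a mutation or received a drug. The groups were adults of day 1, day 3, day 6 and day 9, with 3 libraries each and 12 in all. Cultures were synchronised by bleaching, and larvae were taken out by settling in buffer and by picking. The labels do not say that replicates came from separate cultures, so p-values measure the spread between these libraries, which may be technical.

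A C. briggsae hermaphrodite makes its own sperm first and then switches to oocytes, so self-fertile egg laying ends once the stored sperm is used, while the animal lives on. Whole adult animals contain intestine, epidermis, muscle, neurons and a large germ line with embryos in the uterus, and their RNA is mixed in 1 extract. In such an extract, fewer cells of a type and less RNA per cell cannot be told apart. The count table and the reference table pair none of the identifiers with a gene name, so members are given by identifier, no role is assigned to any of them, and the tissue was not checked against marker genes.

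Library totals ran from 14276540 to 33732477 counts. With 3 counts as the limit that a count of 0 allows, the smallest detectable level ranged between 0.0889 CPM (deepest library) and 0.21 CPM (shallowest), which covers counting error only. No member had 0 counts in any library. Replicate 1 of day 9 stood apart from the other two day 9 libraries. The chi-square per degree of freedom over genes was 257.6 and 309.8 between it and replicates 2 and 3, and 16.21 between those 2. At day 6, replicates 1 and 2 were closest, at 4.53, and replicate 3 differed from them at 31.6 and 35.0. The main values that rest on day 6 replicate 3 or day 9 replicate 1 are also given without that library, a choice made after seeing the data.

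The members were a small part of the transcriptome. Their summed share of the counts (mean ± SD, n = 3 each) was 0.0625% ± 0.0016 at day 1, 0.0561% ± 0.0076 at day 3, 0.231% ± 0.0136 at day 6 and 0.0704% ± 0.0038 at day 9. Without day 6 replicate 3 the day 6 share was 0.238%, and without day 9 replicate 1 the day 9 share was 0.0697%. The mean level at day 6 ran from 3.02 to 350.8 CPM with a median of 23.9 CPM, and 45 members reached a mean of 10 CPM there. Day 6 means were 1.69 to 109.8 times the day 1 means with a median of 4.92, 1.79 to 29.5 times the day 3 means with a median of 5.07, and 1.77 to 13.5 times the day 9 means with a median of 3.29. Without day 6 replicate 3 these medians were 4.94, 5.18 and 3.35 and the median day 6 level 23.6 CPM, and without day 9 replicate 1 the median ratio to day 9 was 3.63. The same rule set for other days found 1062 genes for day 1, 5 for day 3 and 105 for day 9.

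**Figure D1:**
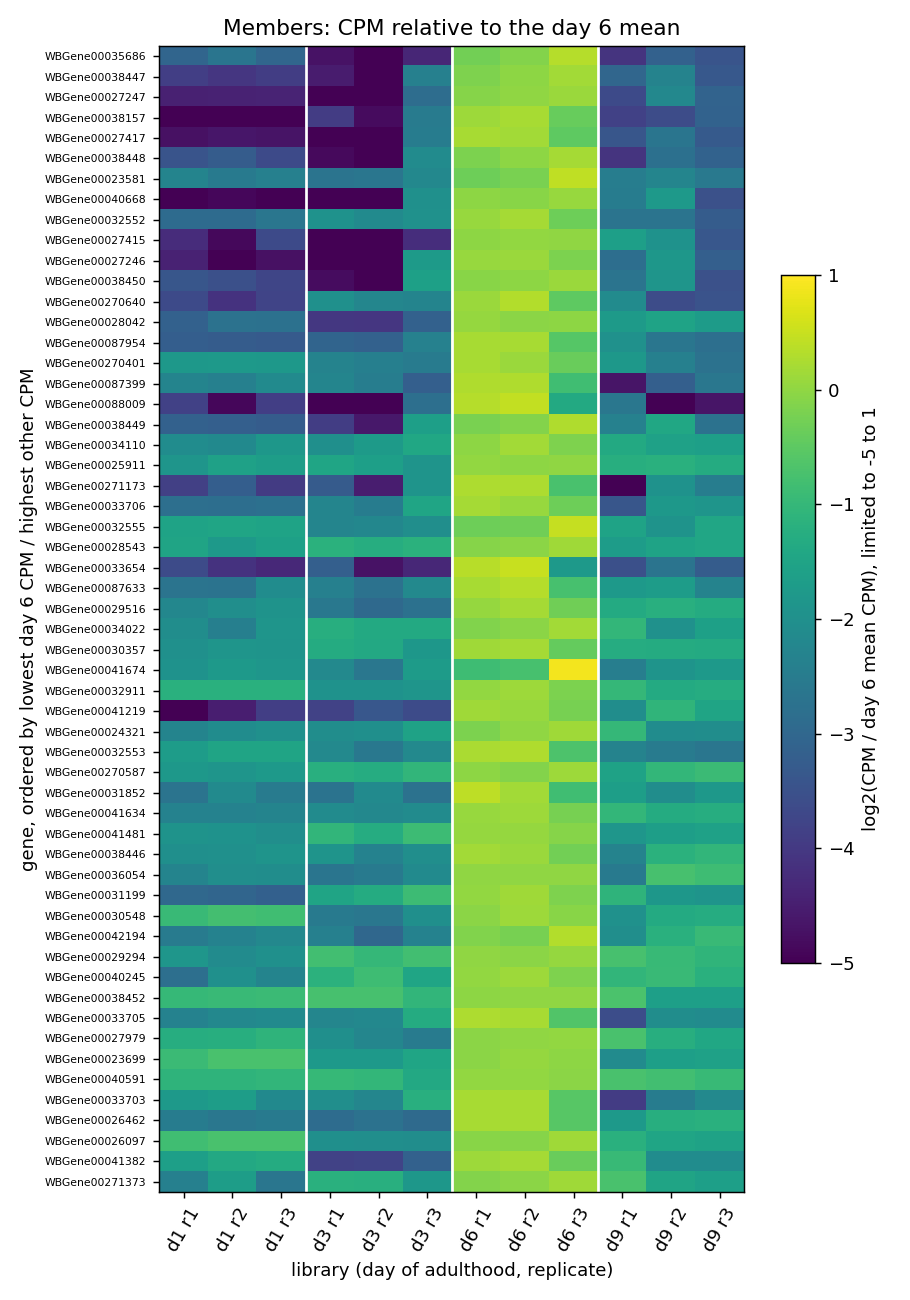
Each of the 56 members (rows) in each of the 12 libraries (columns), as log2 of its CPM over its day 6 mean, ordered from the largest ratio of lowest day 6 to highest other CPM (5.21) to the smallest (1.52). The 3 day 6 columns are bright by the way members were chosen, and among the top rows day 3 replicate 3 is brighter than the other two day 3 libraries.

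The margin that the rule measures was wide for a minority of members and narrow for most. The ratio of the lowest day 6 library to the highest other library had a median of 1.88. It was at least 2 for 25 members, at least 3 for 10 and at least 4 for 5. The library that came nearest to day 6 was of day 9 for 32 members, of day 3 for 17 and of day 1 for 7. Among single libraries it was day 9 replicate 1 for 16 members, day 3 replicate 3 for 14 and day 9 replicate 2 for 11.

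WBGene00035686 had the largest ratio, 5.21. It stood at 3.20, 4.22 and 3.30 CPM in the day 1 libraries, at 1.00, 0.718 and 1.28 CPM at day 3, at 22.0, 24.7 and 33.7 CPM at day 6 and at 1.54, 3.04 and 2.44 CPM at day 9. All day 6 libraries lay far above the rest, and day 3 was the lowest day. The gene with the second largest ratio, 4.46, was WBGene00038447. It had 5.45, 4.81 and 5.32 CPM at day 1, 3.41, 2.12 and 15.5 CPM at day 3, 73.3, 80.6 and 91.3 CPM at day 6, and 10.02, 16.45 and 7.98 CPM at day 9. Its day 3 replicate 3 stood above both other libraries of that day and reached the level of the day 9 libraries.

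The members with the highest CPM at day 6, a scale that does not correct for gene length, were WBGene00032911 and WBGene00032553. WBGene00032911 was already abundant in young adults, at 152.4, 152.4 and 153.9 CPM at day 1, 91.4, 90.6 and 96.1 CPM at day 3, 358.7, 383.8 and 309.9 CPM at day 6 and 173.5, 138.8 and 142.5 CPM at day 9. It dipped at day 3, peaked at day 6 and lay at day 9 in the range around its day 1 level. WBGene00032553 had 39.6, 44.8 and 45.1 CPM at day 1, 28.1, 20.9 and 28.2 CPM at day 3, 149.1, 154.0 and 79.1 CPM at day 6 and 25.3, 22.5 and 20.3 CPM at day 9. Replicate 3 of day 6 lay well below the other two for this gene and still above every library of the other days.

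At the limit of 1.5, the last members inside were WBGene00041382 and WBGene00271373, both with a ratio of 1.52. WBGene00041382 had 7.86, 9.27 and 9.60 CPM at day 1, 1.67, 1.74 and 2.73 CPM at day 3, 26.1, 27.3 and 18.7 CPM at day 6 and 12.3, 5.65 and 5.65 CPM at day 9. WBGene00271373 stood lower, at 0.919, 1.54 and 0.774 CPM at day 1, 2.11, 2.08 and 1.38 CPM at day 3, 4.47, 4.76 and 5.38 CPM at day 6 and 2.94, 1.73 and 1.59 CPM at day 9. In both, day 9 replicate 1 was the library nearest to day 6. Just outside were WBGene00031358, with a ratio of 1.498 (109.7 CPM in the lowest day 6 library against 73.2 CPM in day 9 replicate 1), and WBGene00027414, with a ratio of 1.49 (4.20 CPM in the lowest day 6 library against 2.82 CPM in day 3 replicate 3). WBGene00031358 had 128.8, 131.8 and 109.7 CPM at day 6 and 15.5 CPM or less in each library of days 1 and 3, and it was day 9, at 73.2, 71.1 and 47.3 CPM, that kept it outside.

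**Figure D2:**
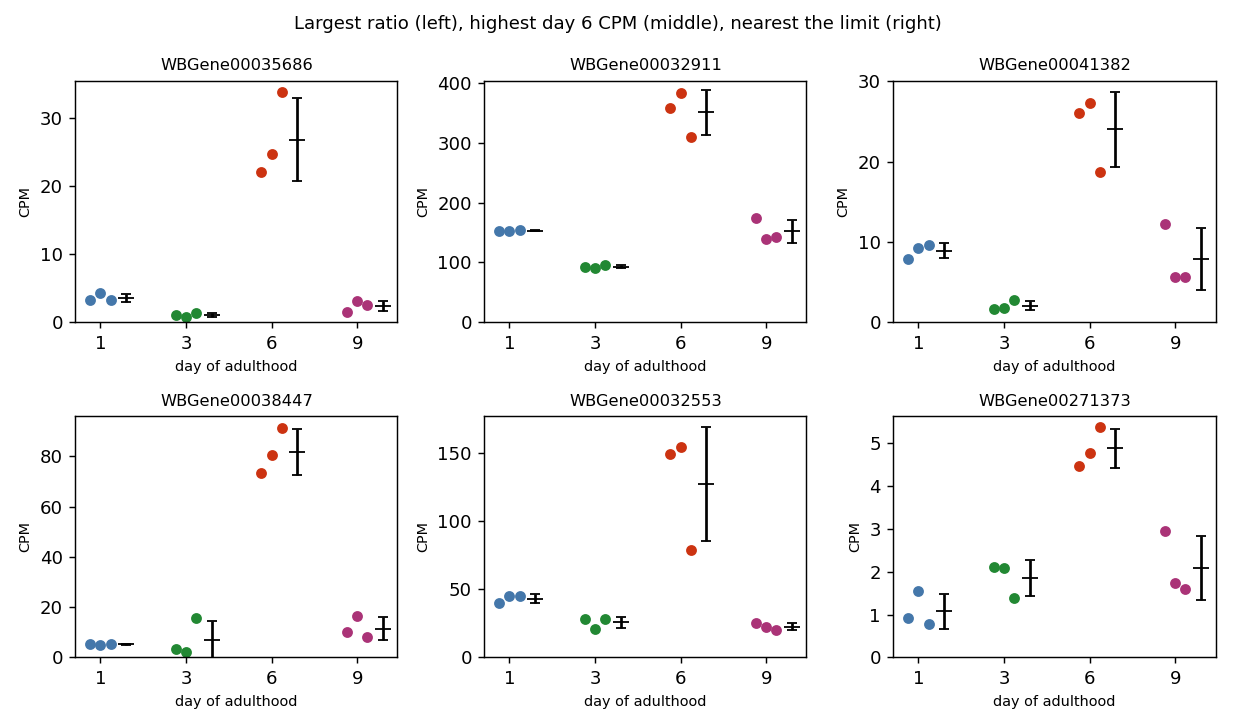
CPM in each library by day of adulthood for the 2 members with the largest ratio (left), the 2 with the highest day 6 CPM (middle) and the 2 nearest to the limit (right); points are libraries in replicate order, and the bar beside them is the mean ± SD (n = 3). WBGene00035686 (top left) lay between 22.0 and 33.7 CPM at day 6 and at 4.22 CPM or less elsewhere; the SD bar of WBGene00038447 at day 3 is clipped at 0.

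The profiles of single members resembled their common mean to differing degrees. Pearson's r of log2(CPM + 1) between a member and the mean of all members, over the 12 libraries, ran from 0.74 to 0.979 with a median of 0.921, and it was at least 0.9 for 37 members. Without day 6 replicate 3 the median was 0.909 and 33 members reached 0.9, and without day 9 replicate 1 the median was 0.932 and 39 did. The shared day 6 peak enters these coefficients by the choice of members. WBGene00038452 had the lowest, 0.74. It stood at 46.2, 47.6 and 48.1 CPM at day 1, 54.1, 53.6 and 43.96 CPM at day 3, 90.0, 91.2 and 90.7 CPM at day 6 and 55.8, 29.7 and 29.5 CPM at day 9, with replicate 1 of day 9 well above the other day 9 libraries.

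Within day 6, replicates 1 and 2 were nearly alike for the members and replicate 3 was not. The log2 ratio of replicate 1 to replicate 2 ran from -0.21 to 0.23, whereas that of replicate 3 to the mean of the other two ran from -1.81 to 1.64, both with 0.5 CPM added. Replicate 3 was below both others for 32 members, beside 44.3% of tested genes, and above both for 19, beside 34.3%. Replicate 3 was at most 1/1.5 of the lower of the other two for 12 members, beside 7.7% of the tested genes. It was at least 1.5 times the higher of them for 3 members, beside 8.57% of the tested genes. WBGene00033654 was at one extreme, with 5.24 and 5.77 CPM in replicates 1 and 2 and 1.21 CPM in replicate 3, and WBGene00041674 at the other, with 8.09 and 8.90 CPM in replicates 1 and 2 and 27.6 CPM in replicate 3. Because the rule takes the lowest day 6 library, replicate 3 decided the membership of many genes. Without it the rule found 118 genes. Leaving out a library can only loosen the ratio, so all 56 members stayed among them.

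Some members stood higher in 1 library of day 3 than in the others of that day. Replicate 3 of that day was above both other replicates for 35 members, beside 39% of the 15788 tested genes, and below both for 13, beside 34%. In 11 members, or 19.6%, day 3 replicate 3 was at least 2 times each of the other two day 3 libraries, beside 7.94% of tested genes. This limit was chosen after seeing the data and the counts were not tested. The split by this limit itself sets the gap within day 3 between these members and the rest. Relative to their own day 6 mean, these 11 genes had medians of 3.39% and 2.59% in replicates 1 and 2 of day 3 and 23.0% in replicate 3. They were also low in young adults, with medians of 6.67%, 4.55% and 6.36% in the day 1 libraries. At day 9 the medians were 12.3%, 21.5% and 10.8% in replicates 1, 2 and 3, so replicate 2 was the highest of that day. The other 45 members had medians of 21.2%, 24.1% and 24.3% at day 1, 23.1%, 20.9% and 24.2% at day 3, and 29.9%, 32.5% and 32.6% at day 9, so their medians outside day 6 lay between 20.9% and 32.6%. Against a day 6 mean without replicate 3, the 11 genes had day 3 medians of 3.57%, 2.75% and 22.4% and the other 45 had 21.8%, 18.96% and 25.1%.

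WBGene00040668 and WBGene00027247, both singled out after their values were seen, show the pattern. WBGene00040668 had 1.84, 2.06 and 1.72 CPM at day 1, 1.30, 1.06 and 15.9 CPM at day 3, 62.5, 61.2 and 67.6 CPM at day 6 and 11.3, 18.96 and 5.54 CPM at day 9. WBGene00027247 had 2.70, 2.75 and 2.79 CPM at day 1, 1.56, 0.604 and 8.27 CPM at day 3, 57.2, 60.1 and 64.1 CPM at day 6 and 4.76, 13.03 and 7.09 CPM at day 9. Both were flat at day 1, lowest in replicates 1 and 2 of day 3, and within day 9 highest in replicate 2. The ratio of lowest day 6 to highest other library ran from 2.25 to 4.46 in these 11 genes with a median of 3.23, and from 1.52 to 5.21 in the other 45 with a median of 1.77. Day 3 replicate 3, which the split used, set this ratio for 6 of the 11 genes and day 9 replicate 2 for 4 of them.

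**Figure D3:**
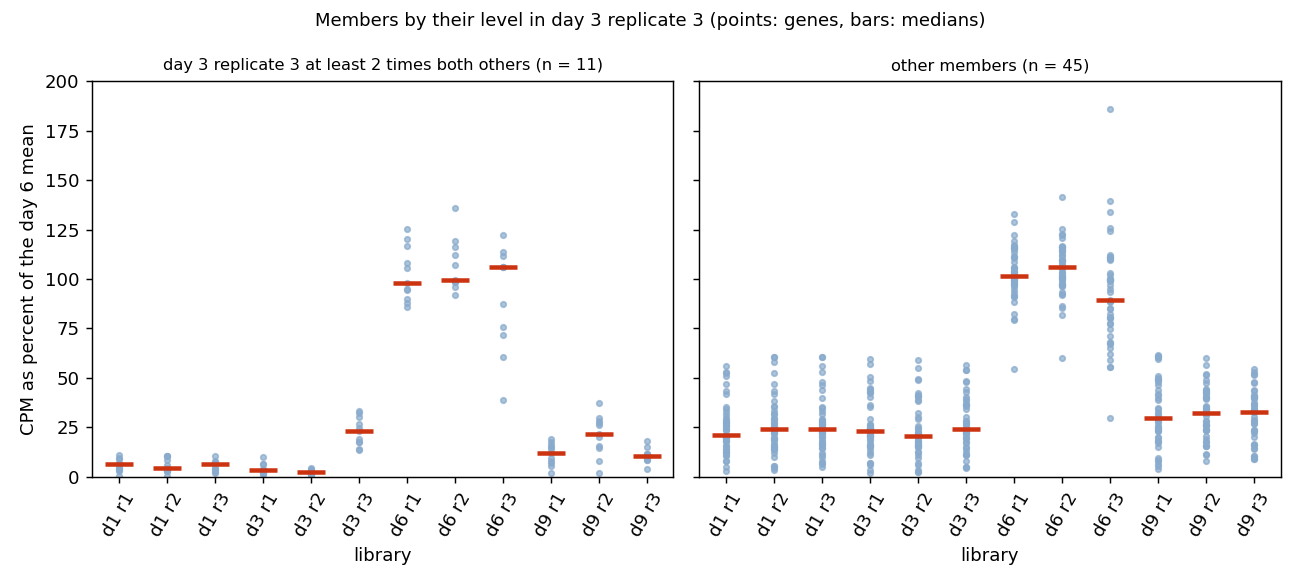
CPM of each member as a percent of its own day 6 mean in each library, for the 11 members with day 3 replicate 3 at least 2 times both other day 3 libraries (left) and the other 45 (right); points are genes and bars are medians. On the left, the median is 23.0% in day 3 replicate 3 and 3.39% and 2.59% in replicates 1 and 2, whereas on the right the 3 day 3 medians lie between 20.9% and 24.2%. The split itself sets this gap within day 3.

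Members also lay close together in the deposited table. Of the 56 members, 18 (32.1%) had another member within 3 rows, in 6 runs of 2 to 6 genes, whereas 1.252% of all 23169 genes had a member that near. The distance of 3 rows was chosen after seeing the data. What the order of rows stands for is not given in the sources used here, so no position in the genome follows from it. Where neighbouring rows hold near-identical or overlapping genes, their reads could have been shared or dropped in counting, and such members are not independent of each other. Of the 11 members raised in day 3 replicate 3, 9 were in these runs, and of the other 45 members 9 were.

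The largest run held 6 members among 9 rows. Its 4 inner members, WBGene00038447, WBGene00038448, WBGene00038449 and WBGene00038450, ran closely together. They stood between 4.04 and 7.14 CPM in the day 1 libraries, between 1.55 and 3.41 CPM in replicates 1 and 2 of day 3, between 15.5 and 18.1 CPM in replicate 3 of day 3, between 42.7 and 91.3 CPM at day 6 and between 3.92 and 18.5 CPM at day 9. The 2 outer members behaved otherwise. WBGene00038446 had 5.67, 4.12 and 5.09 CPM at day 3, with replicate 3 between the other two, and 23.5, 22.3 and 17.3 CPM at day 6. WBGene00038452, described above, was at 29.5 CPM or more in every library. The 3 rows in between that were not members did not share the peak, and the most abundant of them, WBGene00038451, stood between 1.12 and 1.45 CPM at day 6 and between 1.02 and 2.31 CPM elsewhere.

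Over the 9 libraries of days 1, 3 and 9, which leave out the peak, Pearson's r of log2(CPM + 1) had a median of 0.443 for the 24 pairs of members in the same run and 0.191 for the other 1516 pairs. The ranges were as wide as -0.941 to 0.995 and -0.98 to 0.983, so being in 1 run did not by itself mean a like profile. Most of the 24 same-run pairs came from the largest run, of 6 members, so their median says little of the other runs. Without day 9 replicate 1 the medians were 0.531 and 0.192. Among 183 tested genes that were no members but stood within 3 rows of one, 8 (4.37%) had every day 6 library above all others at 1 CPM or more, beside 2.45% of all tested genes that were no members.

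**Figure D4:**
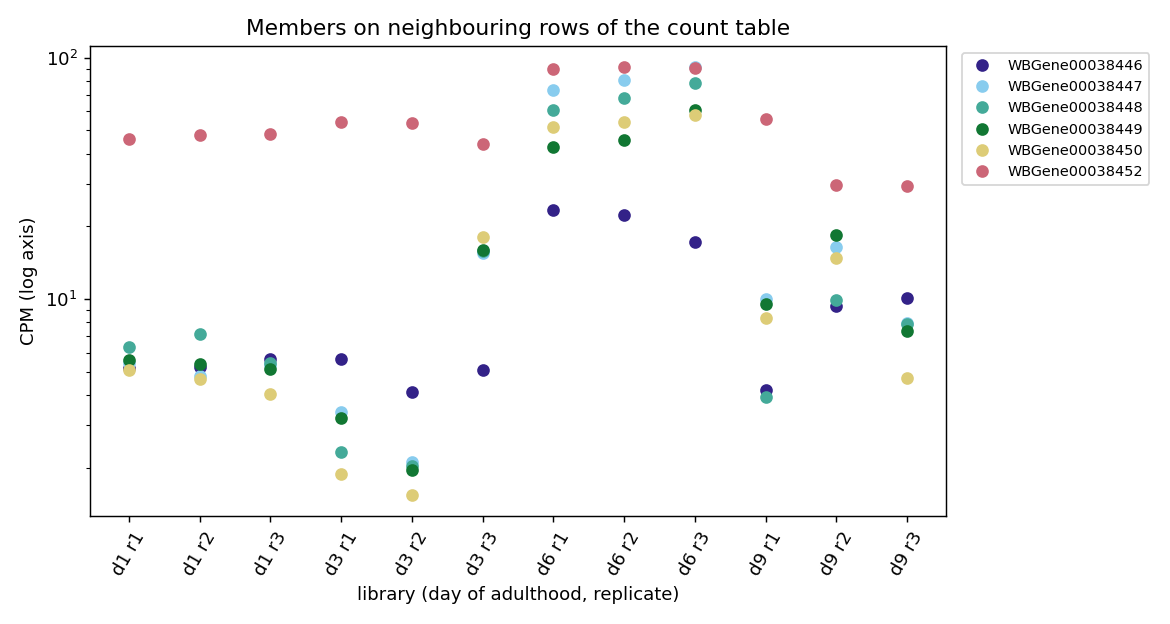
CPM on a log axis in each library for the 6 members of the largest run of neighbouring rows; each point is a library. The 4 inner members lie at 15.5 to 18.1 CPM in day 3 replicate 3, above their other day 3 libraries at 1.55 to 3.41 CPM, while WBGene00038446 and WBGene00038452 show no such step.

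Outside the peak, day 9 had the highest mean CPM of days 1, 3 and 9 for 32 members, beside 44.6% of tested genes, day 3 for 12, beside 25.7%, and day 1 for 12, beside 29.8%. Day 1 was the lowest of these days for 29 members, beside 34.5% of tested genes, day 3 for 20, beside 55.4%, and day 9 for 7, beside 10.1%. Without day 9 replicate 1, day 9 was the highest for 31 members, beside 45.5% of tested genes, and day 1 the lowest for 30, beside 25.5%. These orders are by CPM scaled by library total alone, and the tests below were scaled otherwise.

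The levels outside the peak were then compared by test. Each comparison was made over the 15788 genes that passed the filter on low counts, with edgeR's quasi-likelihood test and Benjamini-Hochberg adjustment over all of them, and a gene was called at an adjusted p under 0.05. All 56 members passed the filter. As the day 6 libraries alone could carry a member through it, the counts outside day 6 were looked at too, and 55 members had at least 10 counts in 3 or more of the other 9 libraries. The 3 comparisons share libraries in pairs, so their results are given side by side and not counted as separate evidence. As the rule caps these libraries below day 6, shares of members and of all tested genes were not tested against each other. Day 9 varied more than the other days, and its libraries entered the common estimate of spread. The tests scaled libraries by edgeR's TMM factors as well as by their totals, whereas CPM uses the totals alone. Shares called and shares by CPM are therefore on unlike scales.

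Between days 1 and 3, before the peak, members moved in both directions. At day 3, 16 members (28.6%) were called higher than at day 1, beside 28.8% of all tested genes, and 8 (14.3%) were called lower, beside 18.8%. In this fit the share called higher was near that of all genes, and other settings moved both shares, as given below. The median log2 fold change of members was 0.39 and that of all tested genes 0.02, and 40 members (71.4%) had a positive value, beside 50.8% of tested genes. The 3 day 3 libraries were each above the highest day 1 library for 15 members, beside 30% of tested genes, and each below the lowest for 13, beside 46.9%. These shares are by CPM, without the TMM factors of the test. Those factors were 0.865 to 0.889 at day 3 and 1.04 to 1.09 at day 1. Over all tested genes the calls were more often rises and the shares by CPM more often falls, so direction depended on the scaling.

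The members that rose most at day 3, within the limits of no overlap and at least 1 CPM in the higher day, were WBGene00038157 and WBGene00031199. WBGene00038157 had 0.852, 0.453 and 2.33 CPM at day 3, against 0.0593, 0.0327 and 0.269 CPM at day 1, where it had 2, 1 and 8 counts. Its log2 fold change was 3.60 (SE 0.74, adjusted p 0.00433 by edgeR), and it was 4.88 with day 1 replicate 3 left out and 2.70 with day 3 replicate 3 left out. In day 1 replicates 1 and 2 this gene lay below 0.0889 and 0.0982 CPM, the levels that a count of 0 allows there. The size of its rise is therefore uncertain. WBGene00031199 rose to 5.26, 6.01 and 7.98 CPM at day 3, against 1.87, 1.77 and 1.65 CPM at day 1, which gave a log2 fold change of 2.15 (SE 0.26, adjusted p 0.000745 by edgeR). For both genes day 3 lay between day 1 and the peak, which was at 10.01 to 15.4 CPM for WBGene00038157 and at 13.2 to 16.3 CPM for WBGene00031199.

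Within the same limits, the largest falls were those of WBGene00041382 and WBGene00035686. The latter, the member with the largest ratio of lowest day 6 to highest other library, first went down. WBGene00041382 averaged 2.04 ± 0.59 CPM at day 3 and 8.91 ± 0.92 CPM at day 1 (SD, n = 3 each), which gave a log2 fold change of -1.84 (SE 0.35, adjusted p 0.00329 by edgeR). WBGene00035686 averaged 0.999 ± 0.281 CPM at day 3 and 3.58 ± 0.56 CPM at day 1 (SD, n = 3 each), which gave a log2 fold change of -1.55 (SE 0.31, adjusted p 0.004 by edgeR). The groups did not overlap in either gene, and the 4 named calls held in each alternative run.

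The counts for day 3 depended on scaling and on single libraries, and so did those of all genes. With TMM factors rises made up 66.7% of the members called, while 4551 of all tested genes were called higher and 2972 lower. With median-of-ratios factors there were 11 rises and 8 falls, beside 14.8% and 23.1% of tested genes, and with upper-quartile factors 10 and 10, beside 16.6% and 25.4%, while the median log2 value over all tested genes moved to -0.13 and -0.26. At a log2 change of 1 or more there were 11 rises and 4 falls, beside 7.65% and 14.8% of tested genes. The 16 rises numbered 9 without day 3 replicate 2, beside 6.17% of tested genes. They numbered 10 without day 1 replicate 1 (20.8% of tested genes), day 6 replicate 1 (10.5%), day 6 replicate 2 (10.6%) or day 9 replicate 3 (18.6%).

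After the peak, at day 9, members stood higher than at day 1 more often than lower. At day 9, 11 members (19.6%) were called higher than at day 1, beside 6.89% of all tested genes, and 4 (7.14%) were called lower, beside 4.7%. The median log2 fold change of members was 0.54, that of all tested genes 0.13, and 40 members (71.4%) had a positive value, beside 60.5% of tested genes. Each day 9 library was above the highest day 1 library for 28 members, or 50%, beside 18.4% of tested genes, and below the lowest for 8, beside 16.8%. Without day 9 replicate 1 these were 34 members, beside 43.1%, and 11, beside 25.1%. Since members were chosen with these libraries in view, the shares are set beside each other with no test of their difference.

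Within the same limits, WBGene00038157 and WBGene00041219 rose most from day 1. WBGene00041219 had 2.17, 4.30 and 3.21 CPM at day 9, against 0.267, 0.393 and 0.606 CPM at day 1, which gave a log2 fold change of 2.87 (SE 0.34, adjusted p 0.000738 by edgeR). WBGene00038157 had 0.911, 1.07 and 1.51 CPM at day 9, against 0.0593, 0.0327 and 0.269 CPM at day 1, which gave a log2 fold change of 3.20 (SE 0.74, adjusted p 0.0218 by edgeR). The size of this rise rests on the same low day 1 counts and is likewise uncertain. By edgeR, WBGene00038157 was no longer called without day 1 replicate 1 (adjusted p 0.1), without day 1 replicate 2 (0.0881), without the day 6 libraries (0.0636) or where replicate 1 alone stood for day 9 (0.0839). With day 1 replicate 3 left out its log2 fold change was 4.46. For both genes the day 9 libraries stood between the young adults and the peak and did not overlap with day 1.

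Within these limits, the largest falls from day 1 were those of WBGene00023699 and WBGene00032553. WBGene00023699 averaged 18.8 ± 3.68 CPM at day 9 and 36.8 ± 2.74 CPM at day 1 (SD, n = 3 each), which gave a log2 fold change of -1.03 (SE 0.15, adjusted p 0.00235 by edgeR). WBGene00032553 averaged 22.7 ± 2.52 CPM at day 9 and 43.2 ± 3.07 CPM at day 1 (SD, n = 3 each), which gave a log2 fold change of -0.98 (SE 0.23, adjusted p 0.0211 by edgeR). Its call did not hold when any 1 day 1 library or day 9 replicate 2 was left out, or where replicate 1 alone stood for day 9. These genes were high in young adults, peaked at day 6 and ended below where they began.

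A fit of days 1 and 9 alone called 2 of 55 tested members higher and 0 lower with edgeR, beside 1.58% and 0.997% of tested genes. There 21 members were higher and 4 lower at an unadjusted p under 0.05, beside 10.4% and 7.48% of tested genes. The 4 named genes kept their signs there, and WBGene00041219 alone kept its call. Without day 9 replicate 1, the library that stood apart, 17 members were called higher and 8 lower, beside 24.3% and 19.7% of tested genes. Where replicate 1 alone stood for day 9, 15 members (8 of them also called in the fit of all 12 libraries) were called higher and 7 lower, beside 28.2% and 34% of tested genes, so that the share of members called higher was not above that of all genes. Without replicate 1 the named log2 fold changes were 3.31 for WBGene00038157, 3.08 for WBGene00041219, -0.90 for WBGene00023699 and -1.10 for WBGene00032553. Without day 1 replicates 1, 2 or 3 the rises numbered 5, 5 and 7, beside 2.58%, 2.89% and 2.77% of tested genes. The falls numbered 1 in each of these fits, beside 1.79% to 1.87%, and 1 without day 9 replicate 2, beside 2.48%.

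Between days 3 and 9, on either side of the peak, members were called in both directions. In this fit the share called higher was near that of all tested genes, and the share called lower was below theirs. At day 9, 11 members (19.6%) were called higher than at day 3, beside 17.5% of all tested genes, and 6 (10.7%) lower, beside 17.2%. The median log2 fold change was -0.01 for members and 0.17 for all tested genes, with 28 members on each side of 0, beside 55.8% of tested genes above 0. Each day 9 library was above the highest day 3 library for 17 members, beside 22.4% of tested genes, and below the lowest for 3, beside 8.61%. Without day 9 replicate 1 these were 20 members, beside 57.5%, and 8, beside 27.6%.

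Among members without overlap and with 1 CPM or more in the higher day, the largest rises were those of WBGene00027415 and WBGene00041219. WBGene00027415 had 2.24, 1.79 and 0.658 CPM at day 9, against 0.148, 0.189 and 0.361 CPM at day 3, which gave a log2 fold change of 2.36 (SE 0.52, adjusted p 0.00902 by edgeR). WBGene00041219 had 2.17, 4.30 and 3.21 CPM at day 9, against 0.629, 0.869 and 0.722 CPM at day 3, which gave a log2 fold change of 1.79 (SE 0.32, adjusted p 0.00383 by edgeR). Days 9 and 3 did not overlap in either gene. For WBGene00027415 the gap was small at low counts, with 17 counts in day 9 replicate 3 against 11 in day 3 replicate 3.

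By the same choice, the largest falls from day 3 were those of WBGene00032552 and WBGene00041481. WBGene00032552 had 6.72, 6.75 and 4.57 CPM at day 9, against 11.3, 10.01 and 11.2 CPM at day 3, which gave a log2 fold change of -1.19 (SE 0.19, adjusted p 0.0022 by edgeR). WBGene00041481 had 23.9, 27.9 and 29.0 CPM at day 9, against 41.9, 35.5 and 46.7 CPM at day 3, which gave a log2 fold change of -0.96 (SE 0.12, adjusted p 0.000705 by edgeR). Their day 9 libraries lay close to day 1, at 5.78 to 7.004 CPM for WBGene00032552 and 21.1 to 22.7 CPM for WBGene00041481, so both had risen by day 3, peaked at day 6 and come back.

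A fit of days 3 and 9 alone called 0 of 55 tested members in either direction with edgeR, beside 0.551% of tested genes higher and 0.613% lower. There 10 members were higher and 3 lower at an unadjusted p under 0.05, beside 14.2% and 13.9% of tested genes, and the 4 named genes had adjusted p from 0.0576 to 0.0923. In the fit of all days the rises numbered 6 without day 3 replicate 2, beside 5.06% of tested genes, and 17 without day 3 replicate 3, beside 10.8%. Without day 9 replicate 1 there were 14 rises and 12 falls, beside 40.4% and 33.9% of tested genes. The named log2 fold changes were then 2.0 for WBGene00027415, 1.96 for WBGene00041219, -1.32 for WBGene00032552 and -0.93 for WBGene00041481. The falls numbered 3 when any other 1 library but day 6 replicate 3 was left out, beside 4.34% to 14.2% of tested genes.

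**Figure D5:**
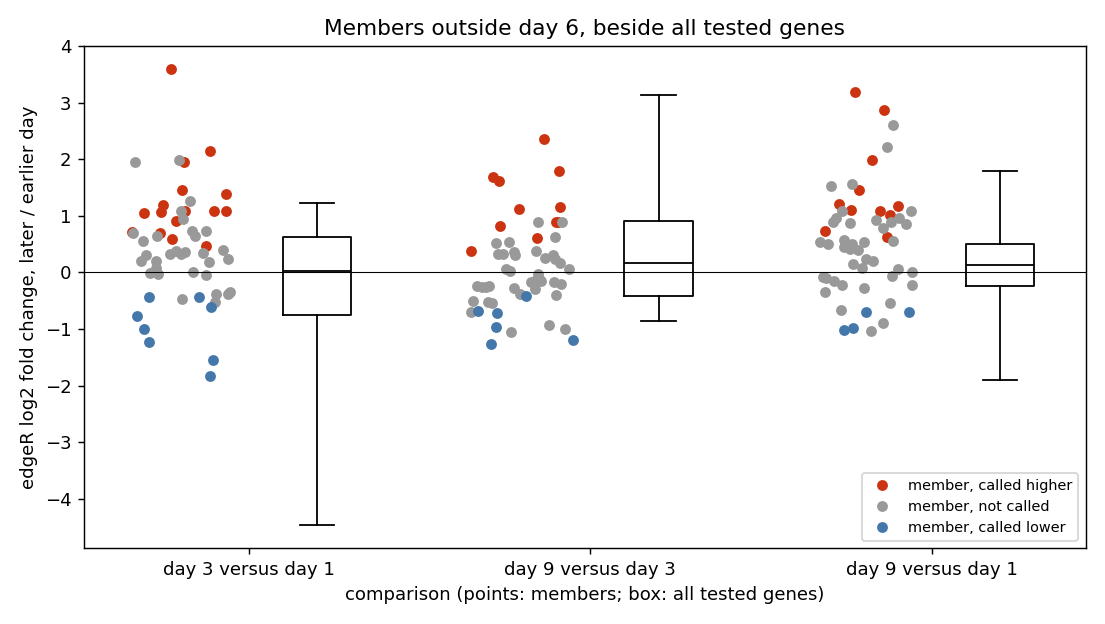
The edgeR log2 fold change (later over earlier day) of each of the 56 members in 3 comparisons, coloured by call, beside a box for all 15788 tested genes (median, quartiles, and whiskers at the 5th and 95th percentiles). Members have medians of 0.39 for day 3 over day 1, -0.01 for day 9 over day 3 and 0.54 for day 9 over day 1, against 0.02, 0.17 and 0.13 for all tested genes.

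Within day 9, members lay on both sides of the split between replicate 1 and the others, as tested genes did. The rule limits how high replicate 1 could stand in a member. Replicate 1 lay above both others for 21 members (37.5%), beside 38% of tested genes, and below both for 24 (42.9%), beside 56.3%. The day 9 medians relative to the day 6 mean were 25.5%, 28.3% and 27.8% in replicates 1, 2 and 3, which is a description, since the rule bounds these values. For single members the log2 ratio of replicate 1 to the mean of the other two ran from -1.81 to 1.20, with 0.5 CPM added. Leaving replicate 1 out of the rule gave 101 members. Leaving out a library can only loosen the ratio, so all 56 stayed among them. For the same reason, replicate 1 was the highest library outside day 6 for each of the 45 genes gained.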

How the data were processed

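The authors deposited 1 table of raw counts per gene with a column for each of 12 libraries; STAR, featureCounts and MultiQC are named in the submitters' processing notes, and no version, build, annotation or strand setting is given in the sources used here. Near-identical, overlapping or antisense genes are therefore uncertain. Libraries were assigned to days by title. CPM values are counts scaled by the column total alone. Tests used edgeR 4.0.16 in R 4.3.3 on the deposited counts: filterByExpr by day, TMM factors, 1 mean per day over all 12 libraries, robust quasi-likelihood F tests, and Benjamini-Hochberg adjustment over all tested genes. The SE of a log2 fold change is its size over the square root of F. The script was tested on simulated data.

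No contrast with day 6 was tested, because the choice of members used it. The members and lists were chosen with earlier results of these data known. Named members were, per comparison, the 2 called rises and 2 called falls with the largest change, no overlap and at least 1 CPM in the higher day, plus the members with the 2 largest and smallest ratios and the 2 highest day 6 means; others are marked. A reference table of 22727 genes (assembly CB4) matched 0 identifiers, so lists of named marker genes could not be applied. Chi-square per degree of freedom between replicates was 4.53 to 309.8, beyond sampling noise, so each library counted as 1 sample. Alternatives used other factors (edgeR's median-of-ratios and upper-quartile), other low-count filters, DESeq2 1.42.0, limma-voom (limma 3.58.1), the replicate number as a block, fewer libraries and stricter thresholds.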

Additional observations from a re-analysis of the deposited data

How the results depend on the processing

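No named fold change turned round under any alternative run. The number of members, 56, was 25 at a ratio of at least 2 and 104 with a looser limit on the ratio, 66 and 70 with TMM and median-of-ratios scaling of the CPM, and 56 to 118 when single libraries were left out of the rule. Without day 6 replicate 3 there were 118 and without day 9 replicate 1 101. Counts of members called are followed by the share of all tested genes in parentheses. For day 3 against day 1, the 16 rises (28.8%) numbered 10 with upper-quartile factors (16.6%), with no low-count filter (9.09%), with at least 1 CPM in 6 libraries (18%), at an adjusted p under 0.01 (15.4%) and with the day 6 libraries left out (14%). The 8 falls (18.8%) numbered 5 at an adjusted p under 0.01 (11%) and 4 at a log2 change of 1 or more (14.8%). Leaving out single libraries gave 9 to 20 rises (6.17% to 36.5%) and 7 to 10 falls (13% to 30.8%). For day 9 against day 3, the 11 rises (17.5%) numbered 6 at an adjusted p under 0.01 (3.69%) and at a log2 change of 1 or more (13.6%). The 6 falls (17.2%) numbered 3 with upper-quartile factors (11.2%), with no low-count filter (7.63%), with at least 1 CPM in 6 libraries (12.9%), at an adjusted p under 0.01 (7.85%) and without day 6 (8.29%), and 2 at a log2 change of 1 or more (2.48%). Single libraries gave 6 to 17 rises (5.06% to 40.4%) and 3 to 12 falls (4.34% to 33.9%). For day 9 against day 1, the 11 rises (6.89%) numbered 5 at an adjusted p under 0.01 (2.58%) and 7 without day 6 (4.12%). The 4 falls (4.7%) numbered 1 at an adjusted p under 0.01 (1.52%) and at a log2 change of 1 or more (3.12%), and 7 where replicate 1 alone stood for day 9 (34%), its spread taken from the other days, with 15 rises (28.2%). Single libraries gave 5 to 17 rises (2.58% to 24.3%) and 1 to 8 falls (1.79% to 19.7%). Fits of only the 2 days compared called 18 rises (33.5%) and 12 falls (40.2%) for day 3 against day 1, 0 rises (0.551%) and 0 falls (0.613%) for day 9 against day 3, and 2 rises (1.58%) and 0 falls (0.997%) for day 9 against day 1 (edgeR). By an unadjusted p under 0.05 the day 9 counts were 10 (14.2%), 3 (13.9%), 21 (10.4%) and 4 (7.48%), and DESeq2 on all days called 13 (24.9%), 5 (14.1%), 13 (8.17%) and 5 (12%). The cause of these shifts was not tested.

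With the replicate number as a block, there were 15 rises (27.6%) and 7 falls (18.3%) for day 3 against day 1, 10 (12%) and 6 (16.6%) for day 9 against day 3 and 10 (5.23%) and 3 (3.93%) for day 9 against day 1, and each count of members stayed within 1.5 times its value without the block. The numbers do not pair the libraries by any label. Deviations of same-numbered libraries from their day means correlated across genes at -0.383 to 0.464, over 0.1 in 10 of 18 pairs, and a library correlated best with its own number in 22 of 36 cases.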
